A study of Mus musculus with 70 samples.

Results

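GABA-A receptors are the chloride channels that carry most fast inhibition in the brain. Each is a pentamer, usually of α and β subunits with a γ or a δ subunit, and the subunit mix sets where the receptor sits and how it responds to GABA. In hippocampus the α2 subunit is best known from synapses, the α4 and δ subunits from extrasynaptic receptors of dentate granule cells, and the α5 subunit from extrasynaptic receptors of pyramidal neurons. The set described here holds 7 of the 24346 genes listed by symbol in the dorsal hippocampus RNA-seq table: the α subunit genes Gabra2, Gabra3, Gabra4 and Gabra5, the β subunit genes Gabrb1 and Gabrb2, and the δ subunit gene Gabrd. They were listed by symbol, chosen by their FPKM differences between exercise and sedentary groups as far as these were already known, and Gabra4 is on a gene list that the study took from these libraries. Differences from sedentary are therefore given as a description.

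The mice were adult male C57BL/6J animals, housed individually, and the tissue was bulk dorsal hippocampus, with 10 libraries in each of 7 groups and 5 of these from each of 2 harvest cohorts, collected on separate days. Groups are named by their days of initial wheel running, sedentary delay and reactivating running. Sedentary mice (0-0-0) stayed in standard cages. The running groups were 0-0-2, with 2 days only, 14-0-0, dissected without delay, 14-14-0 and 14-7-0, dissected after 14 or 7 days of delay, and 14-7-2, which ran again for 2 days after 7 days of delay. Mice of these 6 groups had a 3-min subthreshold acquisition session of the object location memory (OLM) task 1 h before dissection, which is a training too short to give long-term memory by itself. Home cage mice neither ran nor had OLM training. Nothing in the labels says whether a library is 1 mouse, and p-values measure the spread between libraries. Values are FPKM (fragments per kilobase of transcript scaled to sequencing depth), so levels of different subunits can be set side by side per length. All 7 genes passed the minimum mean of 1 FPKM, as did 12994 genes in all.

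Of 70 libraries, 2 stand apart in neuronal and oligodendrocyte markers or in depth. In sedentary replicate 6 the 4 pyramidal neuron markers and the 5 dentate granule cell markers listed for the analysis were each below every other library, among them Lct at 0.0483 FPKM and Neurod6 at 2.45 FPKM, and the 6 oligodendrocyte markers were each above. Of the 4 CA1 markers 2 were below every other library and 2 within the range, and the 4 CA3 markers were all within it. The labelled tissue was thus matched only in part by its markers in that library, and results are given with and without it. Replicate 4 of 14-7-0 had 10279 genes at 0 FPKM against 6243 to 7199 in the others, and a relative depth of 0.0359 (sedentary replicate 0 set to 1) against 0.344 to 1.474. Sedentary replicate 4 was kept in the sedentary group. Of the libraries other than sedentary replicate 6, it had the lowest Gabra2 (18.5 FPKM), Gabrb1 (9.27 FPKM) and Gabrb2 (30.2 FPKM). In bulk tissue fewer cells of a type and less RNA per cell cannot be told apart.

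Except for Gabrd, the 7 genes lie in clusters with other subunit genes. In the RefSeq annotation of GRCm38.p6 (mm10, the build named for these files), Gabra2 (chr5:70958392-71095849, minus strand), Gabra4 (chr5:71569734-71658308, minus) and Gabrb1 (chr5:71657921-72149572, plus) share a cluster with Gabrg1. Gabra5 (chr7:57407669-57591016, minus) lies in a cluster with Gabrg3, and Gabrb2 (chr11:42419515-42632591, plus) in one with Gabra6. Gabra3 (chrX:72432676-72656919, minus) lies beside Gabre and Gabrq, and Gabrd is at chr4:155384979-155398098 (minus). Gabra4 and Gabrb1 are on opposite strands and their first bases overlap over 388 bases (chr5:71657921-71658308). The kit did not mark strand, so reads within this overlap cannot be assigned to either gene.

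The promoter windows of Gabra4 and Gabrb1 are shown because the first bases of these genes overlap. That of Gabrb2 is shown because it is the only member window with both motifs marked here. Each window runs from 250 bases before to 50 bases after a RefSeq start, 5′ to 3′ on the gene's strand, at chr5:71658259-71658558 (minus) for Gabra4, chr5:71657671-71657970 (plus) for Gabrb1 and chr11:42420190-42420489 (plus) for the first of 3 Gabrb2 starts in the promoter table. Capitals mark matches on either strand to GGGCGG, a core of Sp1 sites, or to the TATA box letters TATAAA.
Gabra4: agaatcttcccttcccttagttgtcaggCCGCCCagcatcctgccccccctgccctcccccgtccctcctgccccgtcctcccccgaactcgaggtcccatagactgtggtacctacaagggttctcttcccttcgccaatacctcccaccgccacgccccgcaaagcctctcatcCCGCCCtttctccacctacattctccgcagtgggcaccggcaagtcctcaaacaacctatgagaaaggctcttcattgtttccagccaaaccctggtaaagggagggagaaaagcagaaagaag
Gabrb1: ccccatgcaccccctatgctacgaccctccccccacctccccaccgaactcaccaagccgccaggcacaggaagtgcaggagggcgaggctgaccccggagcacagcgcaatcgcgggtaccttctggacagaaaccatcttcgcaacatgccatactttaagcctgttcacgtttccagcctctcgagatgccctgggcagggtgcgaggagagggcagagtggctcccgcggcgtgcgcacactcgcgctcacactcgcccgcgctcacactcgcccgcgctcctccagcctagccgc
Gabrb2: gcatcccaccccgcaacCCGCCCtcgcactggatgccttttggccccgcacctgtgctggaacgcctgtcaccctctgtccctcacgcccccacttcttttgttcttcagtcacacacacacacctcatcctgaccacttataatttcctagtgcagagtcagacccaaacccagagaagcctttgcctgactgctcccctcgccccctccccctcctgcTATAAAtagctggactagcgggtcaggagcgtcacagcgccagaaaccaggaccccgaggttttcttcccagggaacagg
The Gabra4 window holds 2 matches to GGGCGG and the Gabrb1 window none, and 35.7% of 32851 RefSeq promoter windows of this length hold at least 1. The Gabrb2 window holds 1 such match, and TATAAA beginning 30 bases before the start, which is a motif found on either strand in 13.6% of windows. The cAMP response element TGACGTCA (1.79% of windows) and the Egr motif GCGTGGGCG (0.612%) were not found in any window of the 6 members matched in the promoter table. A match is a description of the letters and not evidence of binding.

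Gabra5, which codes for the α5 subunit, had the highest level of the 7 genes, with 114 FPKM ± 16.4 (SD, n = 69 libraries without sedentary replicate 6). Gabrb2, for the β2 subunit, followed with 47.5 FPKM ± 6.69, and Gabra4, for the α4 subunit, with 38.2 FPKM ± 4.59. Gabra2 was at 27.3 FPKM ± 3.85. The lower end was formed by Gabrd with 18.4 FPKM ± 3.64, Gabrb1 with 16.7 FPKM ± 2.79 and Gabra3, for the α3 subunit, with 14.2 FPKM ± 3.83. Over the 69 libraries only the ranges of Gabra5 and Gabrb2 did not overlap among neighbours in this order. Within libraries, Gabra5 was above Gabrb2 in 69 of 70, the exception being sedentary replicate 6, Gabrb2 above Gabra4 in 68, Gabra4 above Gabra2 in 68 and Gabra2 above Gabrd in 66. The last places were less separate, with Gabrd above Gabrb1 in 50 and Gabrb1 above Gabra3 in 53 of 70 libraries.

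**Figure D1:**
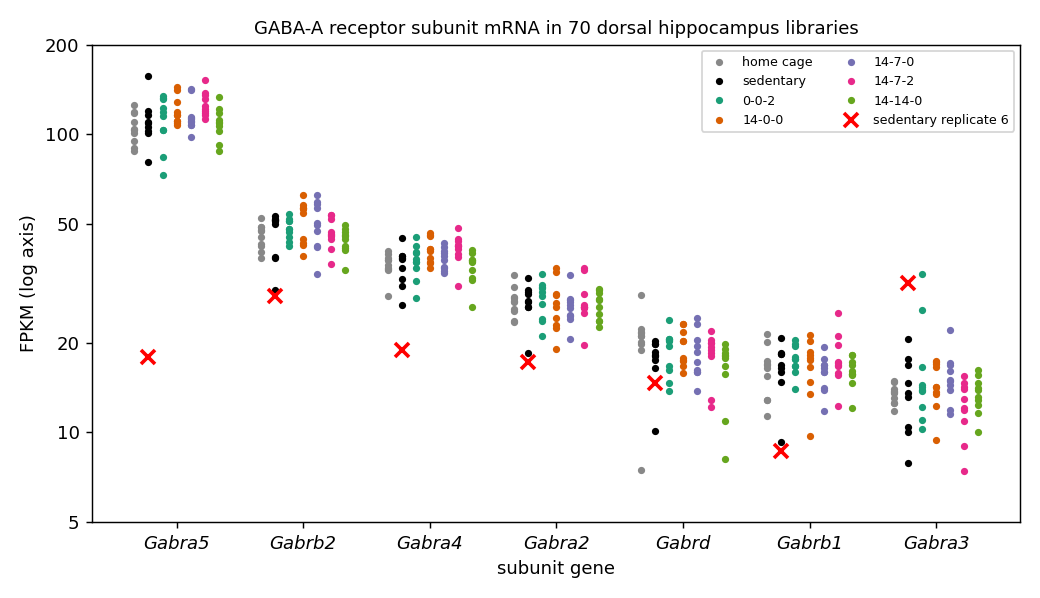
FPKM (log axis) of the 7 subunit genes, each point 1 library and each colour 1 of the 7 groups, with sedentary replicate 6 as a red cross. Gabra5 lies above the other genes, and the cross is the lowest point for 5 genes but near the top for Gabra3.

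The α6 gene Gabra6, known from cerebellar granule cells, reached at most 1.01 FPKM in any library.

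Sedentary replicate 6 was below the other 69 libraries in 5 of the 7 genes. Gabra5 was at 18.0 FPKM there, against 73.1 to 157 elsewhere, and Gabra4 at 18.9 FPKM against 26.4 to 48.5. Gabra2 (17.3 FPKM), Gabrb1 (8.67 FPKM) and Gabrb2 (28.7 FPKM) were below the others by less. Gabrd, at 14.6 FPKM, was within the range of the others. Gabra3 was at 31.8 FPKM, the second highest value of the series. In the same library Gad2, a GABA-synthesising enzyme, was at 139 FPKM against 28.1 to 106 elsewhere, and the vesicular GABA transporter Slc32a1 at 175 FPKM against 8.87 to 74.5. Of the 7 inhibitory neuron markers 3 (these and Gad1) were above every other library, 2 within the range (Sst, Lhx6) and 2 below every other library, with Pvalb at 19.9 FPKM against 28.6 to 87.9 and Vip at 2.08 FPKM against 4.59 to 16.1.

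The only other libraries with more than 25 FPKM of Gabra3 were 0-0-2 replicates 8 (34.1 FPKM) and 4 (25.7 FPKM). They also had low Gabra5, at 73.1 and 84.0 FPKM, which rank 2 and 4 from the lowest of 70. Their summed FPKM of the 4 pyramidal neuron markers was 1435 and 1523, ranks 4 and 5 from the lowest. Replicate 4 of 0-0-2 was second only to sedentary replicate 6 in Gad1, Gad2 and Slc32a1. The part of tissue make-up in these values was not tested.

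Gabra4 was the member called higher than sedentary in both 14-0-0 and 14-7-2, at an unadjusted p under 0.05. Its sedentary values ran from 18.9 to 44.8 FPKM (median 36.9), and from 26.7 without replicate 6. In 14-0-0 the lowest, median and highest values were 35.6, 41.0 and 46.5 FPKM, and in 14-7-2 they were 31.0, 42.2 and 48.5 FPKM. Both exercise groups overlapped with sedentary over most of their range, and the sedentary group had the lower tail. On the log2(FPKM + 0.1) scale the difference from sedentary was 0.28 (standard error 0.117, n = 10 per group) in 14-0-0 and 0.29 (standard error 0.120) in 14-7-2. Without sedentary replicate 6 the differences were 0.19 (standard error 0.0817) and 0.20 (standard error 0.0874), and both calls stayed. The lowest of the remaining sedentary values, 26.7 FPKM, was that of replicate 4. Whether the calls hold without that library as well was not tested. In the other groups the mean levels were 38.3 FPKM ± 3.12 (SD) in 14-7-0, 37.7 ± 4.85 in 0-0-2, 36.6 ± 3.31 in home cage and 35.9 ± 4.30 in 14-14-0, beside 36.2 ± 5.36 in sedentary without replicate 6. In harvest cohort 1 the difference was 0.29 for 14-0-0 and 0.12 for 14-7-2 (log2), and in cohort 2, without sedentary replicate 6, it was 0.081 and 0.29.

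**Figure D2:**
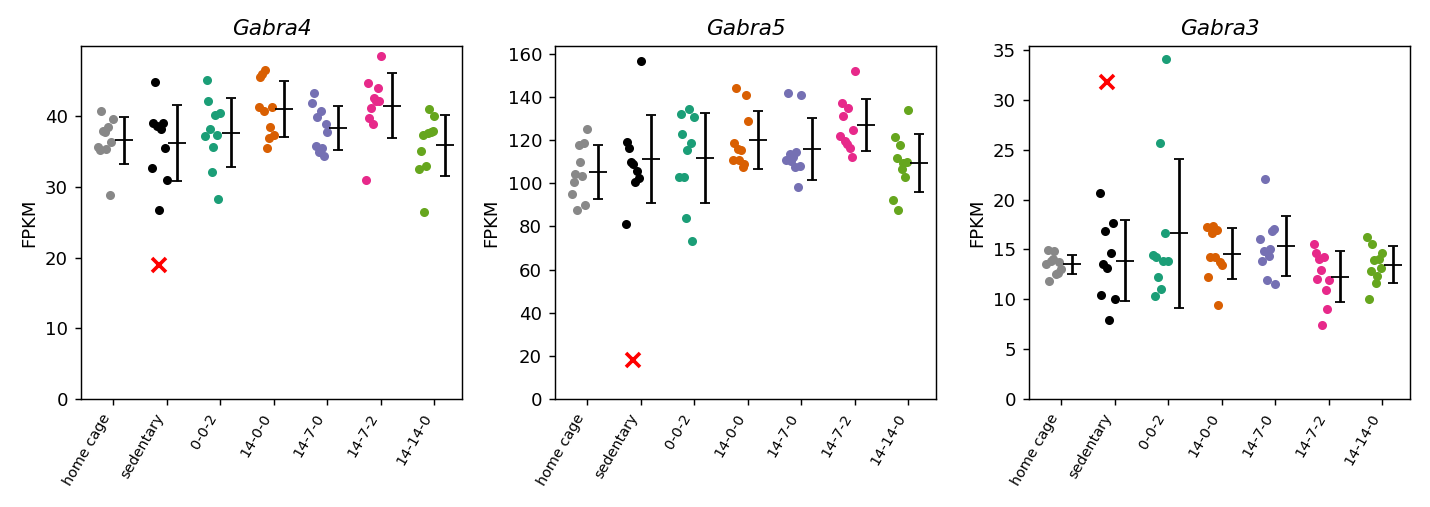
FPKM of Gabra4, Gabra5 and Gabra3 in the 7 groups, each point 1 library, with the mean and SD beside it (sedentary without replicate 6, the red cross). Gabra4 has means of 41.0 in 14-0-0 and 41.5 in 14-7-2 and of 35.9 to 38.3 in the other groups, and the ranges overlap.

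Gabra5 had its highest mean in 14-7-2, with 127 FPKM ± 12.1 and a range of 112 to 152. Its sedentary values ran from 81.1 to 157 FPKM in 9 libraries and were at 18.0 in replicate 6, so sedentary held both the lowest and the highest value. With all libraries the log2 difference of 14-7-2 from sedentary was 0.46 (standard error 0.259) and was not called, and without replicate 6 it was 0.20 (standard error 0.0884) and was called higher. In 14-0-0 the mean was 120 FPKM ± 13.4, and the log2 difference was 0.38 (standard error 0.260) with and 0.12 (standard error 0.0914) without that library. Neither was called.

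The other 5 genes, Gabra2, Gabra3, Gabrb1, Gabrb2 and Gabrd, were not called against sedentary in any of the 6 comparisons, with or without replicate 6. Their log2 differences lay between -0.28 (Gabra3, 14-7-2) and 0.22 (Gabrb2, 14-0-0) with all libraries. Without replicate 6 they lay between -0.15 (Gabra3, 14-7-2) and 0.22 (Gabra3, 0-0-2), and Gabra3 in 14-0-0 turned from -0.022 to 0.10. Gabrb2 had means of 51.3 FPKM ± 8.13 in 14-0-0 and 50.2 ± 9.15 in 14-7-0, against 46.3 ± 8.27 in 9 sedentary libraries. Gabrd had 19.4 FPKM ± 2.70 in 14-0-0 and 16.3 ± 3.78 in 14-14-0, the ends of its range over the trained groups, against 17.3 ± 3.06 in sedentary (17.6 ± 3.08 without replicate 6).

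Read against all genes, 1 of 7 members was called higher in 14-0-0, where 6.11% of all genes tested were, and 1 of 7 in 14-7-2, where 2.07% were. Without sedentary replicate 6 the counts were 1 (6.97% of all genes) and 2 (1.75%). No member was called in 14-7-0, 14-14-0, 0-0-2 or home cage, where 3.26%, 4.95%, 2.37% and 2.3% of all genes were called in either direction, and 3.29%, 6.97%, 2.52% and 3.15% without sedentary replicate 6. The choice of the members used these contrasts, and nothing is read from the counts. The median log2 difference of the 7 genes ranged from 0.026 in 14-14-0 to 0.17 in 14-0-0, beside 0.0083 over all genes in the latter. Without replicate 6 it ranged from -0.030 to 0.12 in the same groups. By limma with Benjamini-Hochberg adjustment 0 genes passed an adjusted p of 0.05 with all libraries. Without sedentary replicate 6, 4 genes did so in 14-0-0, with no member among them, and 0 in the other 5 comparisons. The 6 comparisons share the sedentary libraries.

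**Figure D3:**
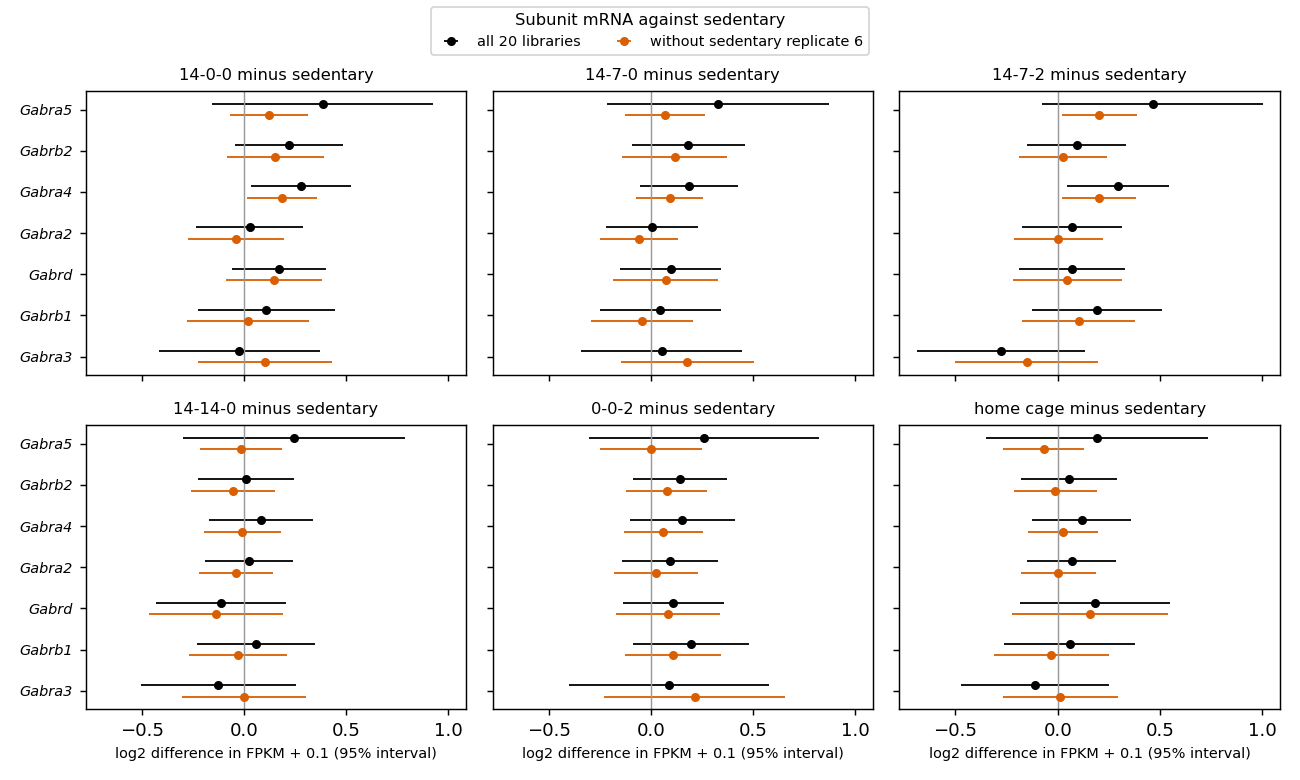
Log2 difference of each group from sedentary with its 95% interval for the 7 genes, with all 20 libraries (black) and without sedentary replicate 6 (orange). The interval of Gabra4 lies above 0 in 14-0-0 and 14-7-2 in both versions, and that of Gabra5 narrows and shifts towards 0 without the library.

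Markers of other cells moved with some of these groups. In 14-0-0 the 6 choroid plexus markers were each called higher than sedentary, with a median log2 difference of 2.40, and their summed FPKM ran from 34.2 to 16026 (sedentary 22.8 to 367). In 14-7-2 they gave 0 calls, with a median of 0.63. In 14-14-0, where Gabra4 was not called, all 6 were called higher as well, with a median of 2.37. The 5 dentate granule cell markers were not called in either group, with median log2 differences of 0.60 and 0.63, which were 0.12 and 0.15 without sedentary replicate 6. Their summed FPKM ran from 72.2 to 139 in 14-0-0, from 56.3 to 137 in 14-7-2 and from 40.9 to 121 in 9 sedentary libraries. The part of these cells in the Gabra4 values was not tested.

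Direct comparisons of the exercise groups do not use the sedentary libraries, but they share the exercise libraries by which the members were chosen. The p-values of members in these comparisons are thus not independent of that choice and are given as a description. Reactivation after the delay (14-7-2 minus 14-7-0) was the comparison in which a member was called. Gabra3 ran from 7.43 to 15.5 FPKM (median 12.5) in 14-7-2 and from 11.5 to 22.0 FPKM (median 15.0) in 14-7-0. The groups overlapped between 11.5 and 15.5 FPKM, and the 3 lowest values of both groups together were in 14-7-2. The log2 difference was -0.33 (standard error 0.129, p = 0.0182, adjusted p = 0.747 by limma over 12994 genes, two-sided), so it does not hold after adjustment. It was -0.27 (p = 0.0388 by limma) without 14-7-0 replicate 3, the highest library, and -0.37 (p = 0.0103 by limma) without the shallow replicate 4. Within cohort 1 it was -0.16 (standard error 0.148) and within cohort 2 -0.50 (standard error 0.175), and the difference between cohorts had p = 0.166 by limma. Of the genes tested, 3.36% were called lower and 5.39% in either direction.

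Beside Gabra3, the GABA-synthesising enzymes Gad1 and Gad2 were called lower in this comparison, with log2 differences of -0.15 (p = 0.00996, adjusted p = 0.661 by limma) and -0.15 (p = 0.0477, adjusted p = 0.927 by limma). Gad1 was at 116 FPKM ± 8.90 in 14-7-2 and 128 FPKM ± 10.4 in 14-7-0. They are 2 of the 3 genes called lower among the 7 inhibitory neuron markers, with the interneuron peptide Vip, and the summed FPKM of this list ran from 383 to 705 in 14-7-2 and from 447 to 698 in 14-7-0. Of the 4 CA1 markers 2 (Mpped1, Wfs1) were called lower, and of the 4 CA3 markers 2 (Bok, Cpne4) were called higher. Of the 6 oligodendrocyte markers 2 (Cnp, Mobp) were called lower, with a median log2 difference of -0.32 over the list, as were 2 of 5 microglia markers (Csf1r, Cx3cr1), 1 of 5 astrocyte markers (Slc1a3) and 1 of 5 neocortex markers (Lamp5). The summed FPKM of the CA3 list was 117 to 277 in 14-7-2 and 40.5 to 157 in 14-7-0, and 14-7-0 replicate 3, the highest in Gabra3, was the lowest of all 70 libraries in it. The part of these cells in the Gabra3 difference was not tested.

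The other members gave smaller differences in this comparison. Gabra5 was 0.13 higher on the log2 scale in 14-7-2 (p = 0.0607, adjusted p = 0.970 by limma) and Gabra4 0.11 higher (standard error 0.0649), with -0.0089 in cohort 1 and 0.23 in cohort 2. In the comparison of 14-7-2 with 0-0-2, which asks what earlier running adds to the same 2 days, Gabra5 differed by 0.20 (95% interval -0.0028 to 0.41, p = 0.0529, adjusted p = 1 by limma) and Gabra3 by -0.37 (95% interval -0.76 to 0.027, p = 0.0663 by limma). Without 0-0-2 replicate 8 these were 0.14 and -0.24. Gabra4 differed by 0.14 (standard error 0.0796). In 14-0-0 minus 14-7-0, the 7 day delay after running, the log2 differences of the 7 genes lay between -0.077 (Gabra3) and 0.094 (Gabra4), and none was called. All genes were called at 2.43% and 5.63% in these comparisons.

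By harvest cohort, Gabrb2 was lower in cohort 2. It had 49.0 FPKM ± 7.37 (n = 35 libraries) in cohort 1 and 45.4 ± 6.21 in cohort 2, a log2 difference of -0.11 (standard error 0.0502, p = 0.0348, adjusted p = 0.368 by limma with group as a covariate). Of all genes 8.29% were called lower in cohort 2 and 11.9% in either direction. Without sedentary replicate 6 the difference was -0.091 (p = 0.0625 by limma), and without 14-7-0 replicate 3 it was -0.099 (p = 0.0530 by limma). Among all genes 8.15% were called lower without sedentary replicate 6. In 14-0-0 the cohorts did not overlap, with Gabrb2 at 56.2 to 62.5 FPKM in cohort 1 and 39.1 to 54.4 in cohort 2, while in 14-14-0 cohort 1 was the lower one (41.6 against 46.5 FPKM).

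Across libraries of a group the 7 genes varied to different degrees. The within-group SD of log2 values was 0.334 for Gabra3 and 0.331 for Gabrd, higher than that of 79.9% and 79.6% of the genes tested, and 0.169 for Gabra4, higher than that of 33.2%. The median gene was at 0.207. Gabra2, Gabra5 and Gabrb2 were near it, with 0.214, 0.200 and 0.205, and Gabrb1 was at 0.259.

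The members followed different cell type markers. The measure is Pearson's r of log2 values after subtraction of the group mean, over the 69 libraries without sedentary replicate 6, which share tissue, depth and dissection, and it is given as a description. Gabrd had an r of 0.77 and Gabra4 of 0.75 with the mean score of the 5 dentate granule cell markers, and with each other of 0.49. The 3 libraries lowest in Gabrd were home cage replicate 7 (7.46 FPKM), 14-14-0 replicate 3 (8.15 FPKM) and sedentary replicate 9 (10.1 FPKM). Their summed FPKM of the dentate markers were 36.6, 35.3 and 40.9, the lowest of the series after sedentary replicate 6. Gabra4 was low in the same libraries, at 28.8, 26.4 and 31.0 FPKM. Sedentary replicate 6 is off this line for Gabrd, with a dentate sum of 4.40 and 14.6 FPKM of Gabrd.

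**Figure D4:**
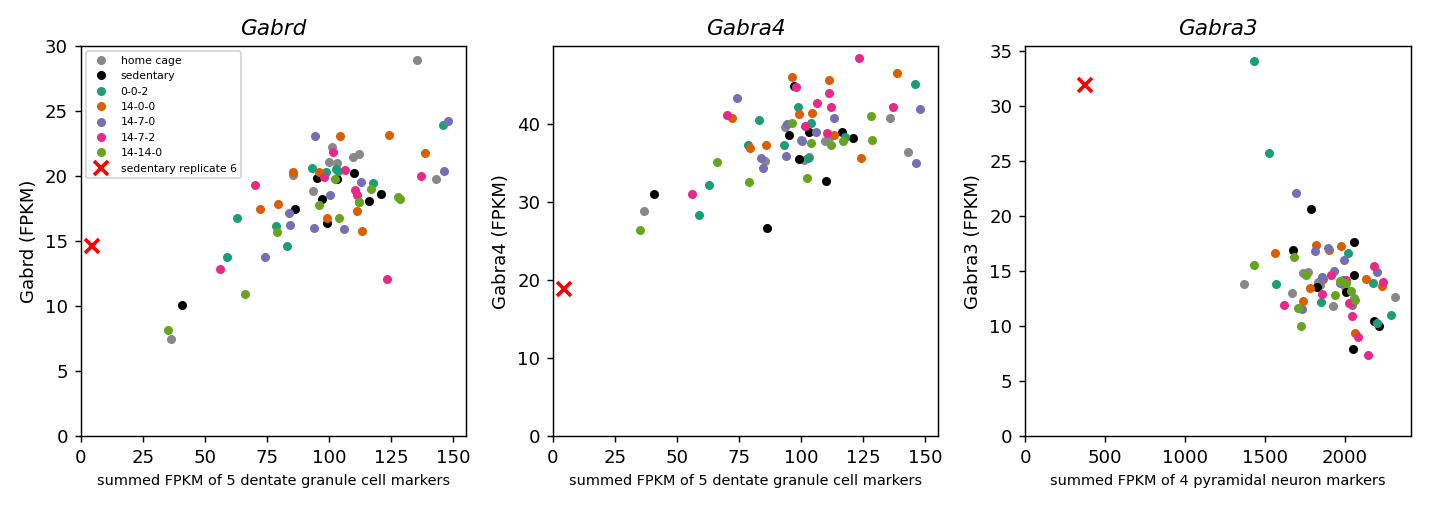
FPKM of Gabrd and Gabra4 against the summed FPKM of 5 dentate granule cell markers, and of Gabra3 against that of 4 pyramidal neuron markers, each point 1 library coloured by group. Libraries with a dentate sum near 40 have about 7 to 10 FPKM of Gabrd, and the 3 libraries highest in Gabra3 lie at the low end of the pyramidal sum.

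Gabra3 and Gabra5 ran against each other, with an r of -0.53. Gabra3 had an r of 0.59 with the inhibitory neuron score and -0.51 with the pyramidal neuron score, and Gabra5 of -0.45 and 0.47. Gabra4 and Gabrb2 had an r of 0.65 and Gabra2 and Gabrb2 of 0.60. Gabra4 and Gabrb1, whose starts overlap, had an r of 0.19, and Gabra4 and Gabra2 of the same cluster 0.45. Gabrb1 had an r between -0.37 and 0.04 with each of the 12 cell type scores. With all 70 libraries the r of Gabra4 and Gabra5 was 0.64 and without sedentary replicate 6 it was 0.39.

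**Figure D5:**
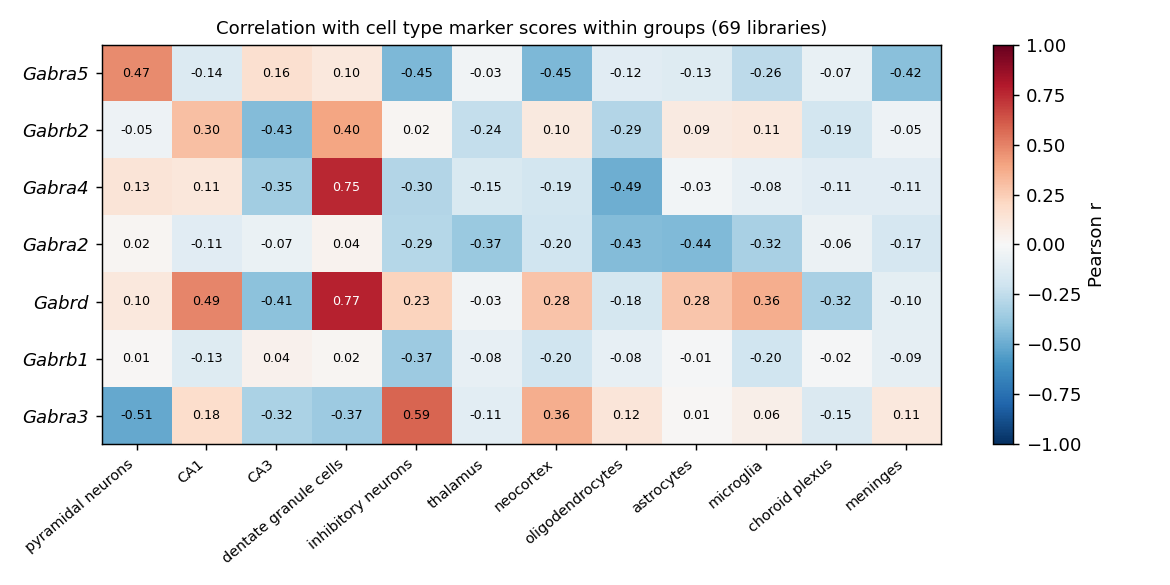
Pearson's r within groups between each of the 7 genes (rows) and the mean score of 12 cell type marker lists (columns), over 69 libraries. The highest values are those of Gabrd (0.77) and Gabra4 (0.75) with dentate granule cell markers and of Gabra3 (0.59) with inhibitory neuron markers.

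Ranked over the 12987 other genes tested, genes most like each member were as follows. Gabra4 was most like Stxbp6 (r = 0.86) and the dentate marker Tdo2 (0.85). Among the genes most like Gabrb2 were B3galt1 (0.85) and Matr3 (0.84). Gabrd was most like Gng7 (0.87), which codes for a G protein γ subunit, Stk32c (0.82) and Dclk3 (0.80). Gabra3 was most like Ldb2 (0.86), Gpr101 (0.82) and Efnb2 (0.80), and Gabra5 most like the phosphatase subunit gene Ppp1cc (0.83), Rasgrp1 (0.81) and Skida1 (0.80). Gabrb1 was most like Xkr4 (0.88) and Glg1 (0.88), and Gabra2 most like Ppp4r4 (0.81), A230046K03Rik (0.81) and the integrin gene Itga4 (0.79).

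The listed genes of GABA signalling beside the members were 12 GABA-A subunits and 14 genes of receptor anchoring and traffic. There were also 8 of GABA synthesis, breakdown and transport, 2 of chloride transport and 2 of the GABA-B receptor. Not all of these reached the minimum mean, and nothing is read from the number of calls among them. Among those tested, Slc6a13 was called higher and Iqsec3 lower than sedentary in 14-0-0, where 9.15% of all genes were called in either direction. Gabbr1, a GABA-B receptor gene, was called higher in 14-7-0 (3.26% of all genes), with a log2 difference of 0.098 (standard error 0.0388). In 14-14-0 (4.95% of all genes) Slc12a2 and Slc6a13 were called higher and Lhfpl4 lower. In home cage (2.3%) Plcl1 and Slc6a13 were called higher, and in 0-0-2 (2.37%) none. The 5 meninges markers had a median sum of 56.5 FPKM in 14-0-0, 57.9 in 14-14-0 and 33.6 in home cage (sedentary 20.7). That of the 6 choroid plexus markers was 2283, 2105 and 126 FPKM (sedentary 85.2). The part of these tissues in the calls was not tested. The calls of Slc6a13, Lhfpl4 and Plcl1 were lost without sedentary replicate 6, while those of Iqsec3, Gabbr1 and Slc12a2 stayed. Shisa7 in 14-0-0 and Gad1 in 14-7-2 were called lower only without that library. Of all genes 10.3% and 3.58% were then called in either direction in these comparisons. With all libraries the share in 14-7-2 was 4.39%. The 14 genes of receptor anchoring and traffic, which include gephyrin (Gphn) and neuroligin 2 (Nlgn2), had median log2 differences between -0.065 and 0.00092 in the 6 comparisons.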

How the data were processed

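RNA was isolated from bilateral dorsal hippocampus, and libraries were made with the TruSeq RNA kit after poly-A selection. The authors aligned reads with ELAND v2e and Bowtie, kept reads placed uniquely with at most 2 mismatches, and deposited FPKM values, with Cuffnorm and mm10 named in the processing notes. The annotation version is not given in the sources used here. The table holds no counts, so no counting interval is given. Relative depth rests on the smallest FPKM steps. Values were transformed as log2(FPKM + 0.1), and limma 3.58.1 (trend, two-sided; R 4.3.3) tested 12994 genes, those whose mean reached 1 FPKM, on the 20 libraries of each comparison. Calls were made below an unadjusted p of 0.05, as in the study, with Benjamini-Hochberg adjustment over the whole table beside them. The cohort comparison used 70 libraries with group as a covariate. The fits were tested on simulated data. Members, marker lists and tests were chosen with earlier results of these data known. Named genes are the members, listed genes of GABA signalling and cell types, and the 3 genes most like each member, of which some are not reported here. No p is given for members against sedentary, nor for Gabra4 between running groups. Libraries were not paired by replicate number in the main fits, because the labels give no shared source beyond the harvest cohort. Across comparisons, 2 to 7 of 10 same-numbered pairs had correlated deviations above 0.1. In 14-7-2 minus 0-0-2, 5 of 10 libraries correlated best with their own number. Whether libraries of the same number share a source was not tested. Alternatives changed the pseudocount, the minimum mean, the scaling (median ratio, quantile) and the fit (joint over 7 groups, cohort term, replicate block, Cyber-T), took each cohort alone, left out single libraries, or lowered the calling p to 0.01. Plots were made in matplotlib 3.10.9 (Python 3.11.15).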

Additional observations from a re-analysis of the deposited data

Results flagged for a closer look

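In 4 of the 49 groups of 10 libraries and 1 gene, 1 library lay farther from its nearest neighbour than the Dixon limit allows, where chance gives about 2.45. Gabra3 stood out in sedentary replicate 6, at 31.8 FPKM, and in 14-7-0 replicate 3, at 22.0 FPKM. Home cage replicate 7 stood out in Gabra4, at 28.8 FPKM, and in Gabrd, at 7.46 FPKM, and its summed FPKM of 5 dentate granule cell markers was rank 3 from the lowest of 70. Without it, Gabrd in home cage was 0.34 higher than in sedentary on the log2 scale (standard error 0.110), against 0.18 with it.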

How the results depend on the processing

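The calls of Gabra4 against sedentary rest on an unadjusted p, and at an unadjusted p under 0.01 the number of members called was 0 in 14-0-0, 14-7-2, 14-7-2 minus 14-7-0 and the cohort comparison. In 14-0-0 the number of members called, 1 as reported, was 3 in the joint fit, 2 in cohort 1 alone and 0 in cohort 2 alone. In 14-7-2 it was 2 in the joint fit, by Cyber-T and without sedentary replicate 6, with Gabra5 as the second gene. In 14-7-0 it was 2 in the joint fit, and in home cage 1 in cohort 1 alone and 1 without home cage replicate 7. In 14-7-2 minus 14-7-0 it was 2 with the replicate block, 0 in cohort 1 alone and 2 in cohort 2 alone. In 14-0-0 minus 14-7-0 it was 1 in cohort 1 alone. In 14-7-2 minus 0-0-2 it was 1 in the joint fit, by Cyber-T and with the replicate block, and 2 in cohort 2 alone. In the cohort comparison it was 0 with quantile normalization and between 0 and 1 when single libraries were left out (0 without sedentary replicate 6 or 14-7-0 replicate 3). Beyond the harvest cohort (replicates 0 to 4 and 5 to 9), the labels give no source that libraries of the same number share, and 0 to 5 of 10 libraries correlated best with their own number. Over all genes, the replicate block moved the calls from 1189 to 1882 in 14-0-0 and from 316 to 707 in 14-7-2 minus 0-0-2.

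Some small log2 differences changed sign. In 14-7-2 minus 14-7-0, in cohort 2 alone Gabrb2 was 0.045 and Gabrd 0.0086, and without single libraries Gabrd ran from -0.0075 (14-7-0 replicate 4) to 0.012 (replicate 3). In 14-0-0 minus 14-7-0, Gabra3 was 6.6e-05 in cohort 1 alone, Gabra2 -0.094 and Gabrb2 -0.028 in cohort 2 alone, and without single libraries Gabra2 ran from -0.018 (14-7-0 replicate 4) to 0.020 (replicate 3). In 14-7-2 minus 0-0-2, Gabrb1 was 0.00043 with median ratio scaling, 0.00014 with quantile normalization and 0.057 in cohort 2 alone, where Gabrb2 was 0.0098 and Gabrd 0.056. In the cohort comparison, Gabra2 was 0.0022 with median ratio scaling and ran from -0.022 (without 0-0-2 replicate 4) to 0.010 (without sedentary replicate 6), Gabra5 from -0.041 to 0.047 without the same libraries, and Gabrb1 0.0084 with median ratio scaling, 0.011 with quantile normalization, 0.024 without sedentary replicate 6, -0.013 without home cage replicate 7, 0.0029 without 14-7-0 replicate 4 and 0.0019 without 0-0-2 replicate 8. The cause was not tested. The alternatives that leave out 14-7-0 replicate 3, 0-0-2 replicates 4 and 8 and home cage replicate 7 were chosen after seeing the data. Without counts, the number of reads behind each FPKM is unknown, and only a relative depth per library is given.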
